A study of Danio rerio with 27 samples.

Results

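The comparison set zebrafish larvae held for 12 h at 10 °C against larvae taken at the moment the exposure began. It used 6 of the 27 RNA-sequencing libraries of the series, the 3 libraries titled 10C-DMSO and the 3 titled 96hpf, and all 24101 genes of the deposited table. The 10C_DMSO larvae were of the AB strain, a standard laboratory line, and were moved at 96 h post fertilization from 28 °C, their rearing temperature, to 10 °C for 12 h in medium with 0.1% DMSO, the vehicle of the inhibitors used elsewhere in the series. The 96hpf larvae were of the same strain and age at the start, lived at 28 °C throughout, and received neither DMSO nor cold. A further group, 28C_DMSO, spent the same 12 h at 28 °C with 0.1% DMSO (n = 3) and is given beside the others to show where a level stood after that time without cold. Cold, DMSO and 12 h of further age and of clock time differ together between 10C_DMSO and 96hpf, and within that comparison they cannot be told apart. Per the study's methods, any dead larvae were removed before RNA was taken, so the values describe larvae not judged dead at collection. By the study's account, whether a larva would survive was hard to tell at that point. RNA came from whole bodies, where fewer cells of a type and less RNA per cell cannot be told apart.

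Zebrafish are ectotherms, so the whole body of a larva cools with the water. Stress of many kinds switches on immediate early genes, which encode short-lived transcription factors of the AP-1, Egr and related families and need no new protein for their induction, and the MAP kinases ERK and p38 are among the routes to them. Zebrafish tissues also carry circadian clocks that run in nearly every cell and are set by light and by temperature.

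The values below are scaled TPM. TPM corrects for transcript length and gives a gene's part of everything transcribed in that library. Each value was divided by a size factor that lines up the typical gene across libraries. Changes are differences of log2(scaled TPM + 1) with their standard error (SE). A gene was called higher or lower where limma with Benjamini-Hochberg adjustment over all 24101 genes gave an adjusted p of 0.05 or less and the fold was at least 1.5. Read depth is unknown because TPM keeps none. The labels do not say whether replicates came from separate clutches or dishes, so the p-values speak only of the scatter among the sequenced samples, which may be technical. TPM summed to between 996255 and 997428 per library, and transcripts of the mitochondrial genome made up 8.42, 11.2 and 11.4% of the 10C_DMSO libraries and 10.3 to 10.7% of the 96hpf libraries. 10C_DMSO replicate 1 stood apart from its group on the second principal component of the 9 libraries of 10C_DMSO, 28C_DMSO and 96hpf (12.7% of the variance), at -25.24, against 4.67 and 11.42 for replicates 2 and 3. 28C_DMSO replicate 1 stood apart in the same direction, at -38.88, against -6.868 and -10.89 for replicates 2 and 3. Mitochondrial transcripts made up 7.299, 9.91 and 9.692% of the 28C_DMSO libraries. Without 10C_DMSO replicate 1, 1746 genes were called higher and 1333 lower, against 1720 and 1271 with all libraries.

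Of 24101 genes, 1720 were called higher in 10C_DMSO than in 96hpf, which is 7.14%, and 1271 were called lower, which is 5.27%. The counts of called members in the gene lists below are to be read against these shares. All 3 values of 10C_DMSO lay above those of 96hpf for 5377 genes (22.3%) and below them for 5084 genes (21.1%). The median change of all genes was -0.000435 on the log2 scale. The 15 largest named rises ran from 3.71 to 6.79 on the log2 scale, and the 15 largest named falls from -1.46 to -2.73. Among the called genes 57.5% were higher, but 36.1% when TPM was used as deposited, which moved the median change of all genes to -0.14. Which direction held more genes therefore rests on the scaling. Of the 191 calls on genes singled out by rule, 13 were lost with TPM as deposited and none turned its direction. The comparison with 28C_DMSO, which is also the test of whether the change since 96hpf differed between the temperatures, called 2104 genes higher in 10C_DMSO (8.73%) and 1702 lower (7.06%). Counts of list members against 28C_DMSO are to be read against these 8.73 and 7.06%. Both comparisons use the same 10C_DMSO libraries.

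**Figure D1:**
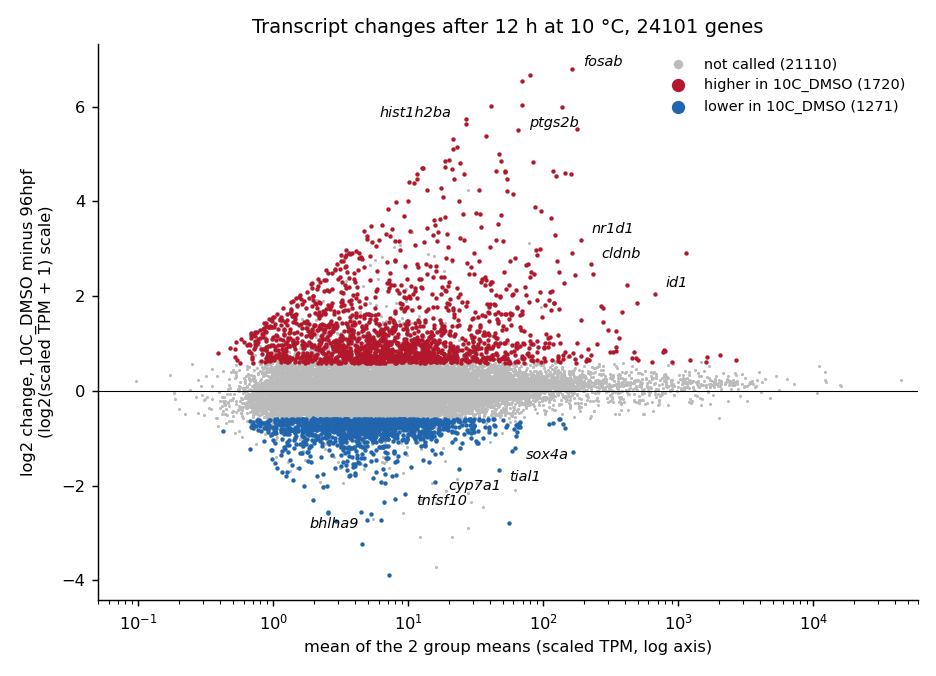
Each point is 1 gene. The x axis is the mean of the 10C_DMSO and 96hpf means in scaled TPM on a log axis, and the y axis the log2 change, 10C_DMSO minus 96hpf. The 1720 genes called higher reach 6.79 for fosab, while the 1271 genes called lower lie closer to 0. The 6 genes at 0 in both groups cannot be shown on the log axis.

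The largest named rise was that of fosab, a Fos subunit of AP-1 (ENSDARG00000031683). It stood at 279.6, 359 and 339 scaled TPM in 10C_DMSO, against 1.77, 2.07 and 1.99 in 96hpf, a ratio of means of 167 and a log2 change of 6.79 (SE 0.172, limma adjusted p 7.75e-18). ptgs2b (ENSDARG00000010276), a cyclooxygenase that makes prostaglandins, was at 113, 134 and 135 scaled TPM in 10C_DMSO and 1.43, 2.77 and 1.49 in 96hpf, a log2 change of 5.50 (SE 0.227, limma adjusted p 3.17e-14). In both genes the cold values lay far above the starting values. mrnip (ENSDARG00000074071), whose product binds the MRN complex at DNA double-strand breaks, was at 30.8, 40.1 and 40.2 scaled TPM in 10C_DMSO and 0.519, 0.297 and 0.115 in 96hpf. ccn1, a secreted matricellular protein, stood at 114, 110.4 and 117 scaled TPM in 10C_DMSO and 4.53, 6.004 and 5.77 in 96hpf. armc10, an armadillo repeat protein, stood at 65.05, 108 and 102 scaled TPM in 10C_DMSO and 5.93, 5.69 and 6.14 in 96hpf, with the lowest cold value in replicate 1. The largest rises and falls were picked from genes whose groups did not overlap. The separation of these 5 genes was therefore fixed by that choice. The authors kept genes at 1 TPM or more in every replicate of at least 1 group. mrnip missed that level in 96hpf and in 28C_DMSO, so it is listed only because another group reached it. Its rise is therefore partly fixed by that filter. After 12 h at 28 °C the 28C_DMSO means were 0.25 scaled TPM for mrnip, 5.04 for ccn1 and 5.68 for armc10, close to the start.

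**Figure D2:**
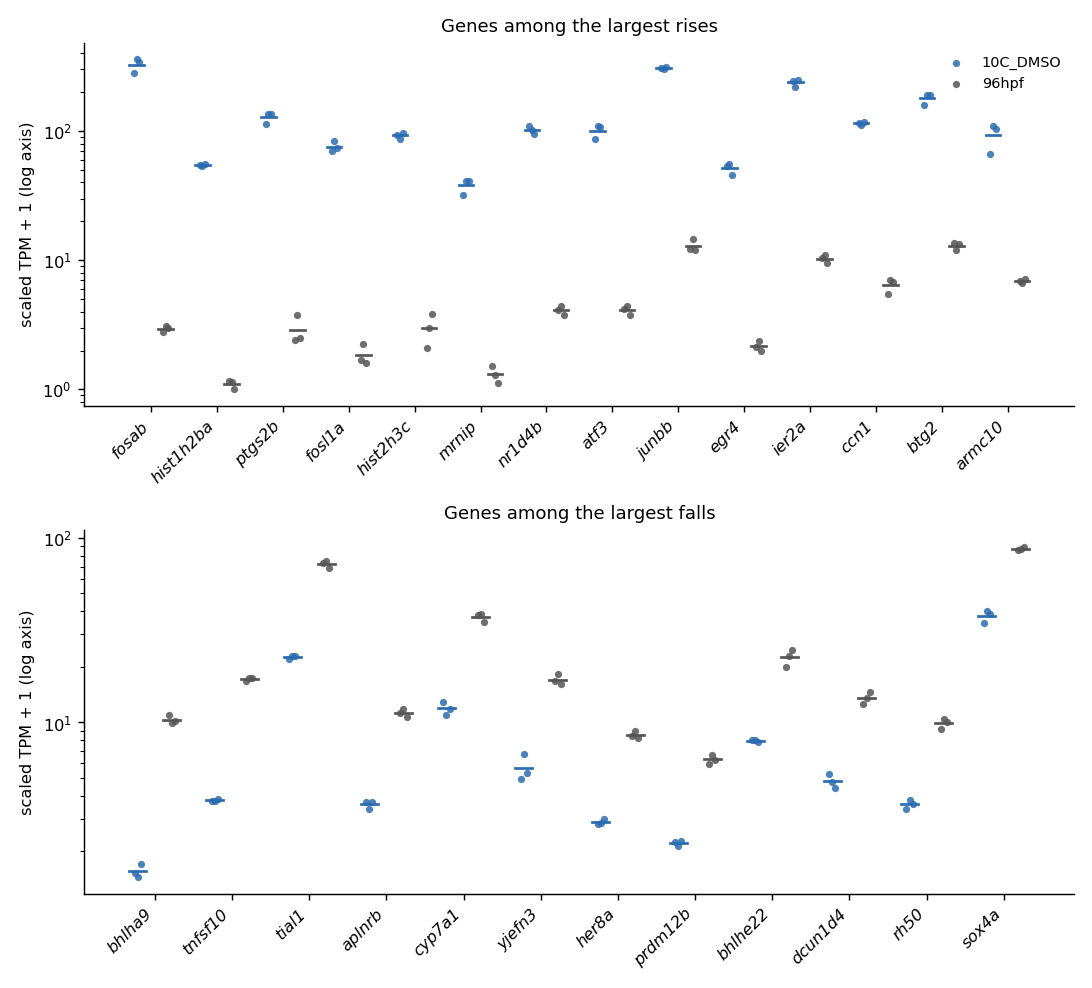
Points are single libraries, 3 for 10C_DMSO on the left of each pair and 3 for 96hpf on the right, and short lines are means. The y axis is scaled TPM + 1 on a log axis. The upper panel holds 14 genes with large rises and the lower panel 12 with large falls. All 26 were picked from genes whose groups do not overlap, so their separation was fixed by that choice.

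Among the falls, bhlha9 (ENSDARG00000103981), a basic helix-loop-helix factor known from limb and fin development, was at 0.526, 0.452 and 0.6999 scaled TPM in 10C_DMSO and 10.02, 8.91 and 9.16 in 96hpf, a log2 change of -2.73 (SE 0.162, limma adjusted p 1.94e-11). tnfsf10 (ENSDARG00000057241), a ligand of death receptors, was at 2.73, 2.75 and 2.85 scaled TPM in 10C_DMSO and 15.9, 16.4 and 16.4 in 96hpf, a log2 change of -2.19 (SE 0.0645, limma adjusted p 9.29e-17). tial1 (ENSDARG00000009525), an RNA-binding protein of splicing and stress granules, was at 21, 21.98 and 21.97 scaled TPM in 10C_DMSO and 72.2, 73.7 and 67.9 in 96hpf, a log2 change of -1.67 (SE 0.0974, limma adjusted p 1.4e-11). The cold values of each of these 3 genes were all below the starting values. aplnrb, an apelin receptor, averaged 2.595 ± 0.185 scaled TPM in 10C_DMSO and 10.3 ± 0.585 in 96hpf (SD, n = 3 each, as for all means below). bhlhe22, a transcription factor gene, averaged 6.94 ± 0.0949 scaled TPM in 10C_DMSO and 21.6 ± 2.33 in 96hpf. prdm12b, a factor of sensory and spinal neurons, averaged 1.22 ± 0.0625 scaled TPM in 10C_DMSO and 5.3 ± 0.353 in 96hpf. sox4a, a factor of neural precursors, averaged 36.9 ± 3.09 scaled TPM in 10C_DMSO and 86.6 ± 1.63 in 96hpf. Groups without overlap were a condition for naming these falls too. bhlha9 missed the authors' minimum of 1 TPM in 10C_DMSO, so it is listed only because another group reached it. Its fall is therefore partly fixed by that filter. In 28C_DMSO the means were 23.2 scaled TPM for bhlhe22, 5.904 for prdm12b and 83.8 for sox4a, near the start.

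Most immediate early factors rose. Of 44 measured gene identifiers 36 were called higher in 10C_DMSO than in 96hpf and 1 lower, with a median log2 change of 1.85, and 34 to 36 were higher under every alternative tried. fosl1a, another AP-1 subunit, was at 69.03, 82.1 and 72.7 scaled TPM in 10C_DMSO and 0.694, 1.23 and 0.592 in 96hpf. It missed the authors' minimum of 1 TPM in 96hpf, so it is listed only because another group reached it. Its rise is therefore partly fixed by that filter. atf3, a bZIP factor induced by stress, was at 85.5, 108 and 107 scaled TPM in 10C_DMSO and 3.18, 3.41 and 2.75 in 96hpf. The AP-1 subunit junbb (ENSDARG00000104773) was at 309, 304 and 314 scaled TPM in 10C_DMSO and 11.2, 13.7 and 11.1 in 96hpf. Each of these rose by over 4.5 on the log2 scale. egr4, a zinc finger factor of neurons, averaged 50.7 ± 5.65 scaled TPM in 10C_DMSO and 1.17 ± 0.185 in 96hpf. The antiproliferative gene btg2 averaged 179 ± 16.6 scaled TPM in 10C_DMSO and 11.96 ± 0.869 in 96hpf. The highest levels in the list were those of id1, an inhibitor of helix-loop-helix factors, at 1119, 1028 and 1088 scaled TPM in 10C_DMSO and 261, 262 and 261 in 96hpf, a log2 change of 2.04 (SE 0.0386, limma adjusted p 3.29e-19). The family of nr4a orphan receptors was mixed. nr4a3 rose by 1.69 on the log2 scale, and nr4a2a, at 2.01, 3.44 and 3.78 scaled TPM in 10C_DMSO and 11.8, 5.85 and 5.88 in 96hpf, was the 1 member called lower. At 28 °C these genes stayed near the start. The 28C_DMSO means were 1.69 scaled TPM for fosab, 2.91 for atf3, 11.5 for junbb, 12.1 for btg2 and 274 for id1. Against 28C_DMSO the list had 35 members higher and 1 lower.

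Many genes that ERK signaling induces and that in turn damp it were higher too. Of 27 measured identifiers 15 were called higher and 1 lower, with a median log2 change of 0.73, and with TPM as deposited the counts were 13 and 2. dusp1, a phosphatase of p38, JNK and ERK, was at 313, 284 and 273 scaled TPM in 10C_DMSO and 32.8, 39.1 and 42.6 in 96hpf, a log2 change of 2.90 (SE 0.139, limma adjusted p 4.49e-13). dusp2, another such phosphatase, averaged 30.1 ± 0.384 scaled TPM in 10C_DMSO and 4.904 ± 0.188 in 96hpf. The Sprouty inhibitors split. spry4 was at 29.96, 30.5 and 33.5 scaled TPM in 10C_DMSO and 12.4, 14.2 and 12.4 in 96hpf, a log2 change of 1.21 (SE 0.0915, limma adjusted p 1.17e-09). spry2 was at 17.1, 18.8 and 16.7 scaled TPM in 10C_DMSO and 32.1, 34.1 and 35.5 in 96hpf, a log2 change of -0.91 (SE 0.0634, limma adjusted p 2.89e-10). In both the groups did not overlap. etv4, a transcription factor downstream of ERK, was not called, at 15.3 ± 0.698 scaled TPM in 10C_DMSO and 13.4 ± 1.15 in 96hpf.

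Most inflammation genes rose. Of 37 measured identifiers 23 were called higher and 1 lower, with a median log2 change of 1.10, and 21 to 23 were higher under every alternative tried. Feedback inhibitors were among the most abundant members. nfkbiaa, an inhibitor of NF-kB, was at 181, 158 and 163 scaled TPM in 10C_DMSO and 20.6, 20.6 and 19.5 in 96hpf. socs3a, an inhibitor of cytokine receptor signaling, was at 70.01, 69.4 and 78.6 scaled TPM in 10C_DMSO and 7.48, 9.07 and 7.54 in 96hpf. Cytokine genes rose from lower levels. il1b was at 7.55, 8.801 and 9.84 scaled TPM in 10C_DMSO and 0.544, 0.684 and 0.511 in 96hpf, a log2 change of 2.62 (SE 0.201, limma adjusted p 1.44e-09). tnfb was at 7.23, 6.16 and 6.38 scaled TPM in 10C_DMSO and 0.4198, 0.707 and 0.859 in 96hpf. The chemokine gene cxcl8a was at 22.97, 25.7 and 35.6 scaled TPM in 10C_DMSO and 3.48, 5.54 and 2.37 in 96hpf. In all 3 the groups did not overlap. The authors kept genes at 1 TPM or more in every replicate of at least 1 group. il1b and tnfb missed that level in 96hpf, so they are listed only because another group reached it. Their rise is therefore partly fixed by that filter. stat3, a transcription factor that cytokine receptors activate, was the 1 member called lower, averaging 4.61 ± 0.217 scaled TPM in 10C_DMSO and 9.498 ± 0.464 in 96hpf. Against 7.14 and 5.27% of all genes, leukocyte markers gave 2 higher and 1 lower of 38 (5.26 and 2.63%). Their summed level was 533, 564 and 648 scaled TPM in 10C_DMSO and 504, 578 and 494 in 96hpf, with overlapping groups. The higher ones, il1b and mmp13a, are also in the inflammation list.

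Most histone identifiers rose, 42 of 53 measured, with 1 lower and a median log2 change of 2.23. The median depended on the pseudocount and was 2.84 with 0.5 and 3.94 with 0.1. Canonical histones package newly copied DNA, and their genes lie in many near-identical copies. Transcripts can be split between such copies, so single values are uncertain, and 36 of the 53 identifiers share a symbol with another. hist1h2ba (ENSDARG00000109370), which has a symbol of its own, was at 53.6, 52.6 and 54.9 scaled TPM in 10C_DMSO and 0.159, 0.148 and 0 in 96hpf. hist2h3c was at 92.9, 86.1 and 96.3 scaled TPM in 10C_DMSO and 1.09, 2.0 and 2.85 in 96hpf. Both were listed close to 0 scaled TPM at the start, which is a level in these libraries and not a measure of transcription. hist1h2ba missed the authors' minimum of 1 TPM in 96hpf, so it is listed only because another group reached it. The same holds for the hist1h4l identifiers ENSDARG00000105382 and ENSDARG00000111753, both called higher. How many other histone identifiers missed that level was not counted. The number called higher and the median therefore partly follow from that filter. The linker histone gene histh1l was at 459, 649 and 622 scaled TPM in 10C_DMSO and 178, 179 and 185 in 96hpf. h1f0, the linker histone of resting cells, was at 410.5, 546 and 536 scaled TPM in 10C_DMSO and 224, 226 and 232 in 96hpf. In both replicate 1 was the lowest of the cold libraries and still above every starting value. The 10 identifiers that were not called all belong to histone variants, a class that also holds h1f0, which was higher. h3f3a averaged 694 ± 75.3 scaled TPM in 10C_DMSO and 675 ± 22.7 in 96hpf, a log2 change of 0.03 (SE 0.0778). h2afx averaged 60.2 ± 6.08 scaled TPM in 10C_DMSO and 42.1 ± 4.599 in 96hpf, a log2 change of 0.51 (SE 0.102, limma adjusted p 0.000541), under the fold threshold. h1fx, a linker variant at 21.3, 35.9 and 36.5 scaled TPM in 10C_DMSO and 47.2, 45.3 and 48.9 in 96hpf, was the 1 member called lower. It was not called lower without 10C_DMSO replicate 1, with library weights or with the fit of 3 groups. With only genes of at least 5 scaled TPM on average, fewer histone identifiers were tested and 29 were called higher.

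Most clock repressors rose, with 14 of 20 measured identifiers called higher, 1 lower and a median log2 change of 1.86. In the clock, the activators Clock and Bmal (arntl) drive Period, Cryptochrome and Rev-erb genes, whose products repress them. nr1d1 (ENSDARG00000033160), a Rev-erb receptor, was at 355, 321 and 349 scaled TPM in 10C_DMSO, 11.8, 10.2 and 9.801 in 28C_DMSO and 35.8, 35.8 and 38.4 in 96hpf. cry2 was at 96.4, 106 and 93.02 scaled TPM in 10C_DMSO, 4.94, 3.54 and 3.19 in 28C_DMSO and 13.1, 12.8 and 16.1 in 96hpf. per1b was at 131, 132 and 136 scaled TPM in 10C_DMSO, 4.21, 3.57 and 3.48 in 28C_DMSO and 20.2, 19.02 and 20.8 in 96hpf. In each, cold larvae lay above the start and warm larvae below it, with no overlap of the 3 groups. Against 96hpf the log2 change in 10C_DMSO was 3.19 for nr1d1, 2.74 for cry2 and 2.67 for per1b. The changes since 96hpf differed between the temperatures by 4.89 for nr1d1 (limma adjusted p 5.38e-20), 4.36 for cry2 (5.75e-17) and 4.82 for per1b (2.18e-23). bhlhe40, a repressor that is also induced by many stimuli, averaged 288 ± 7.86 scaled TPM in 10C_DMSO, 9.26 ± 0.534 in 28C_DMSO and 52.2 ± 1.78 in 96hpf. The Rev-erb gene nr1d4b was at 108, 100.1 and 94.8 scaled TPM in 10C_DMSO, 15.8, 13.5 and 13.8 in 28C_DMSO and 3.13, 3.46 and 2.75 in 96hpf, so its warm values lay between the cold ones and the start. The change of 28C_DMSO from 96hpf was not tested.

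For other clock genes the larger distance from the start was in warm larvae. cry1a was at 33.6, 38.2 and 38.6 scaled TPM in 10C_DMSO, 3.19, 2.38 and 2.4 in 28C_DMSO and 27.1, 28.1 and 26.9 in 96hpf. per2, which light induces, was at 14.3, 19.1 and 17.5 scaled TPM in 10C_DMSO, 1.47, 1.89 and 1.47 in 28C_DMSO and 9.57, 12.7 and 11.4 in 96hpf. Neither was called against 96hpf, with log2 changes under the fold threshold of 0.41 for cry1a (SE 0.112) and 0.56 for per2 (SE 0.198). Both were called higher against 28C_DMSO, cry1a by 3.38 and per2 by 2.78. The activators gave 2 higher and 1 lower of 13 against 96hpf (15.4 and 7.69%), with a median of -0.19. Against 28C_DMSO, where 8.73% of all genes were higher and 7.06% lower, 2 were higher and 5 lower. arntl1a averaged 8.86 ± 1.05 scaled TPM in 10C_DMSO, 15.1 ± 0.7102 in 28C_DMSO and 10.3 ± 0.153 in 96hpf. The 2 members that rose and the 1 that fell were all genes of ROR nuclear receptors. rorca averaged 106 ± 1.304 scaled TPM in 10C_DMSO and 32.5 ± 1.75 in 96hpf. rorcb averaged 31.2 ± 4.71 scaled TPM in 10C_DMSO and 6.31 ± 0.115 in 96hpf. The one lower was 1 of the 2 identifiers of rorab, at 5.58, 5.87 and 4.72 scaled TPM in 10C_DMSO and 9.61, 8.84 and 9.03 in 96hpf. Of the bZIP factors that pass clock time to other genes, 7 of 11 identifiers were called higher and 1 lower. nfil3-5 was at 206, 210.4 and 215 scaled TPM in 10C_DMSO and 15.7, 16.6 and 15.8 in 96hpf. tefa was the 1 called lower, at 27.4, 36.97 and 33.5 scaled TPM in 10C_DMSO, 13.1, 17.4 and 17.1 in 28C_DMSO and 51.6, 56.1 and 54.2 in 96hpf, so it was lower than at the start and higher than in warm larvae. A photoreceptor gene had the order of nr1d1 and cry2. pde6ha, the inhibitory subunit of the cone phosphodiesterase, was at 452, 496 and 514 scaled TPM in 10C_DMSO, 25.6, 25.3 and 19.8 in 28C_DMSO and 226, 184 and 202 in 96hpf.

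**Figure D3:**
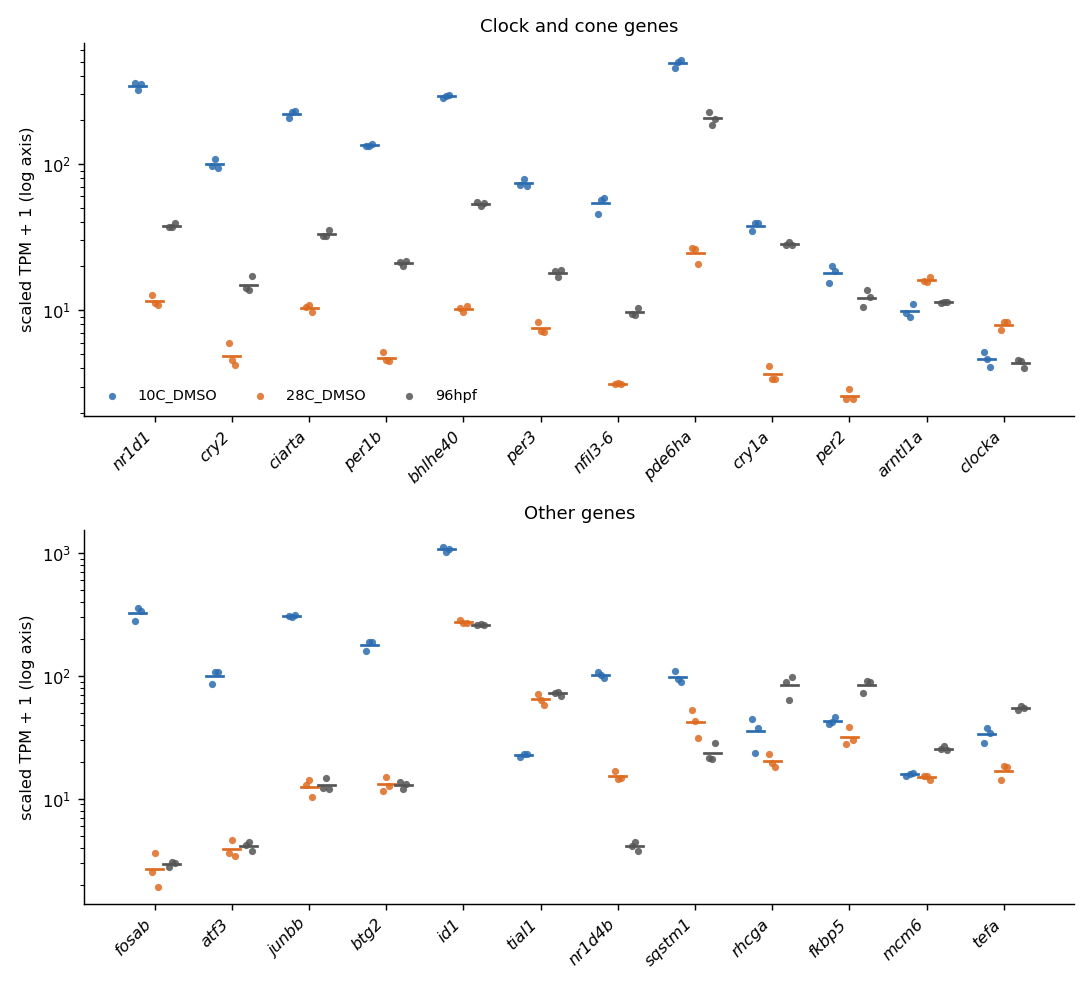
Points are single libraries of 10C_DMSO, 28C_DMSO and 96hpf, from left to right for each gene, and lines are means, with scaled TPM + 1 on a log axis. In the upper panel nr1d1, cry2 and per1b lie above the start in 10C_DMSO and below it in 28C_DMSO. In the lower panel 28C_DMSO lies near 96hpf for fosab, atf3, junbb, btg2, id1 and tial1, and away from it for nr1d4b, sqstm1, rhcga, fkbp5, mcm6 and tefa.

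Some genes stood on the same side of the start at both temperatures. How many did so was not counted, and those below are examples. fkbp5, a chaperone that glucocorticoids induce, was at 39.5, 40.9 and 45.8 scaled TPM in 10C_DMSO, 26.8, 37.2 and 28.98 in 28C_DMSO and 71.3, 89.98 and 88.7 in 96hpf. rhcga, an ammonia channel of ionocytes, was at 43.9, 22.6 and 36.9 scaled TPM in 10C_DMSO, 22.2, 18.5 and 17.1 in 28C_DMSO and 89.2, 62.7 and 97 in 96hpf. mcm6, a subunit of the replicative helicase, was at 14.3, 15.1 and 15.2 scaled TPM in 10C_DMSO, 14.5, 14.3 and 13.2 in 28C_DMSO and 24.2, 25.7 and 23.8 in 96hpf. All 3 were called lower against 96hpf. Against 28C_DMSO mcm6 and fkbp5 were not called, with a log2 difference of 0.08 for mcm6 (limma adjusted p 0.311) and 0.44 for fkbp5 (limma adjusted p 0.206), and rhcga was called higher. On the upper side, sqstm1, an autophagy receptor, was at 109, 94.4 and 87.8 scaled TPM in 10C_DMSO, 51.9, 42.2 and 30.5 in 28C_DMSO and 20.6, 20.0 and 27.6 in 96hpf. guca1a, which activates the retinal guanylate cyclase, averaged 6.004 ± 0.729 scaled TPM in 10C_DMSO, 4.37 ± 0.239 in 28C_DMSO and 1.69 ± 0.411 in 96hpf.

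Other stress pathways rose in part. In the integrated stress response, phosphorylation of the initiation factor eIF2 favours translation of Atf4. Of its 34 genes 9 were called higher and 1 lower (26.5 and 2.94%, against 7.14 and 5.27% of all genes). Their median was 0.13. cebpb, a bZIP factor, was at 149, 161 and 158 scaled TPM in 10C_DMSO and 18.8, 22.5 and 16.3 in 96hpf. trib3, a pseudokinase, was at 84.6, 84.7 and 94.04 scaled TPM in 10C_DMSO and 13.6, 16.1 and 14.04 in 96hpf. ppp1r15a, which brings a phosphatase to eIF2, was at 119, 122 and 118 scaled TPM in 10C_DMSO and 25.7, 25.5 and 25.1 in 96hpf. In all 3 the groups were far apart. ddit3, a factor that Atf4 induces, averaged 67 ± 10.2 scaled TPM in 10C_DMSO and 20.9 ± 1.77 in 96hpf. Of 26 endoplasmic reticulum folding genes 4 were called higher and 0 lower against 96hpf, or 2 and 2 with TPM as deposited. Against 28C_DMSO, where 8.73% of all genes were higher, 10 of the 26 were higher. hspa5, the main chaperone there, averaged 179 ± 9.64 scaled TPM in 10C_DMSO, 57.6 ± 0.974 in 28C_DMSO and 78.1 ± 1.13 in 96hpf. Heat shock genes gave 9 higher and 0 lower of 41 (22 and 0%), with a median of 0.14, or 8 and 3 with TPM as deposited. The inducible copy hsp70l was at 18.4, 18.4 and 19.7 scaled TPM in 10C_DMSO and 3.76, 2.82 and 3.74 in 96hpf. hsp70.1 was at 8.92, 9.96 and 11.2 scaled TPM in 10C_DMSO and 1.41, 1.42 and 1.82 in 96hpf. Both rose but stayed low, and the division of transcripts between such near-identical copies is uncertain.

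Of 16 identifiers of genes known as cold markers, among them the cold-inducible RNA-binding proteins, 1 was called higher and 0 lower. That is 6.25% higher, against 7.14% of all genes. cirbpa was at 407, 398 and 402 scaled TPM in 10C_DMSO and 337, 341 and 326 in 96hpf. Its groups did not overlap, but the change was under the fold threshold, 0.27 on the log2 scale (SE 0.0331, limma adjusted p 2.04e-06). cirbpb was at 1275, 1189.9 and 1163 scaled TPM in 10C_DMSO and 1095, 1103 and 1007 in 96hpf, a log2 change of 0.18 (SE 0.0386, limma adjusted p 0.00107). hmgb3a, a chromatin protein, averaged 305 ± 17 scaled TPM in 10C_DMSO and 211 ± 9.95 in 96hpf. The 1 gene called was scd, a fatty acid desaturase at 2.13, 1.84 and 1.49 scaled TPM in 10C_DMSO and 0.882, 0.612 and 0.8202 in 96hpf. It lost its call with TPM as deposited, without 10C_DMSO replicate 1 and without 96hpf replicate 2. scd also missed the authors' minimum of 1 TPM in 96hpf, so it is listed only because another group reached it.

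Some genes for survival and some for cell death were higher. Of 18 anti-apoptotic genes 6 were called higher and 0 lower (33.3 and 0%, against 7.14 and 5.27% of all genes), with a median of 0.27. mcl1a was at 174, 192 and 198 scaled TPM in 10C_DMSO and 50.5, 52.1 and 50.1 in 96hpf. pim1, a survival kinase, was at 154, 146 and 163 scaled TPM in 10C_DMSO and 34.8, 34.4 and 37.4 in 96hpf. Of 26 pro-apoptotic genes 5 were called higher and 3 lower, with a median of 0.03, or 3 and 4 with TPM as deposited. The BH3-only genes pmaip1 and bbc3 were among those that rose. pmaip1 was at 31.3, 29.4 and 37.2 scaled TPM in 10C_DMSO and 4.398, 8.66 and 6.08 in 96hpf. bbc3 was at 10.3, 10.5 and 10.3 scaled TPM in 10C_DMSO and 3.39, 3.13 and 4.09 in 96hpf. tnfsf10, given above, was among those that fell. cdkn1a, an inhibitor of the cell cycle, was at 63.98, 70.6 and 67.6 scaled TPM in 10C_DMSO and 15.5, 16.5 and 23.8 in 96hpf. gadd45ba, a stress sensor, averaged 138 ± 3.56 scaled TPM in 10C_DMSO and 23.5 ± 2.77 in 96hpf. FoxO factors and their targets gave 10 higher and 0 lower of 29 (34.5 and 0%), all 10 of them targets, and 7 higher with TPM as deposited. igfbp1a, a binding protein of insulin-like growth factors, was at 80.4, 84.7 and 94.8 scaled TPM in 10C_DMSO and 18.6, 23.4 and 14.9 in 96hpf. txnipa, which lowers glucose uptake, was at 428, 416 and 406 scaled TPM in 10C_DMSO and 116, 131 and 114 in 96hpf. None of the FoxO factor genes was called. foxo3a was at 45.8, 43.8 and 45.2 scaled TPM in 10C_DMSO and 34.4, 32.98 and 32.4 in 96hpf, a log2 change of 0.42 (SE 0.0474, limma adjusted p 4.72e-07), under the fold threshold. The study's own 10 hub identifiers of cold damage were all called higher, with a median of 2.35, but the study picked them out of cold-exposed larvae of its other experiment as genes that rose in cold, so the count is not independent evidence of their direction.

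Some genes of RNA processing and of developmental signaling fell. SR splicing factors and their kinases gave 0 higher and 5 lower of 32, or 8 lower with quantile normalization. These are 0 and 15.6%, against 7.14 and 5.27% of all genes, with a median of -0.15. An identifier of srsf3a, among the 5, lost its call without 10C_DMSO replicate 2 or 3 and without 96hpf replicate 2 or 3. srsf1b was at 19.4, 18.9 and 19.9 scaled TPM in 10C_DMSO and 35.7, 34.9 and 34.4 in 96hpf, a log2 change of -0.82 (SE 0.0557, limma adjusted p 1.93e-10). tra2b was at 25.9, 27.1 and 25.3 scaled TPM in 10C_DMSO and 45.8, 41.4 and 35.7 in 96hpf. Outside that list, rbm5, a splicing regulator, averaged 43.7 ± 4.02 scaled TPM in 10C_DMSO and 78.1 ± 11.9 in 96hpf. eif5, a translation initiation factor, averaged 106 ± 4.08 scaled TPM in 10C_DMSO and 184 ± 11.2 in 96hpf. Of 40 response genes of the Notch, Wnt, Hedgehog and BMP pathways 5 were called higher and 10 lower (12.5 and 25%), with a median of 0.06. Within Notch, ligand genes were among the higher and target genes among the lower. The ligand gene dla was at 19.9, 19.1 and 17.8 scaled TPM in 10C_DMSO and 10.2, 10.9 and 10.5 in 96hpf, a log2 change of 0.79 (SE 0.05797, limma adjusted p 6.58e-10). her4.1, a repressor that Notch induces, was at 3.998, 4.304 and 4.401 scaled TPM in 10C_DMSO and 12.4, 12.8 and 12.4 in 96hpf, a log2 change of -1.37 (SE 0.161, limma adjusted p 8.36e-07). In both the groups did not overlap. The ligand gene dlb rose by 0.96 and dld by 0.84 on the log2 scale, and the target gene her12 fell by 0.91 and her15.2 by 0.76. smad7, a feedback inhibitor of TGF-beta and BMP, averaged 24.7 ± 2.44 scaled TPM in 10C_DMSO and 9.63 ± 0.474 in 96hpf.

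Single metabolic genes changed. cyp7a1, which catalyses the limiting step from cholesterol to bile acids, was at 11.9, 10.02 and 10.8 scaled TPM in 10C_DMSO and 37.03, 37.9 and 33.9 in 96hpf, a log2 change of -1.65 (SE 0.138, limma adjusted p 5.94e-09). cyp8b1, a later enzyme of that route, averaged 14.3 ± 1.76 scaled TPM in 10C_DMSO and 30.01 ± 1.46 in 96hpf. angptl4, an inhibitor of lipoprotein lipase, was at 128, 119 and 121 scaled TPM in 10C_DMSO and 32.1, 32.1 and 33.3 in 96hpf. The fatty acid and lipoprotein list gave 4 higher and 2 lower of 43 (9.3 and 4.65%), near the 7.14 and 5.27% of all genes. Cholesterol synthesis gave 1 higher and 4 lower of 32 (3.12 and 12.5%), with a median of -0.25. It had 9 lower with TPM as deposited and 2 lower without 10C_DMSO replicate 2 or without replicate 3. Its 1 higher member was the lipoprotein receptor gene ldlra, at 44.7, 45.97 and 46.5 scaled TPM in 10C_DMSO and 21.1, 20.8 and 21.1 in 96hpf. mvda, an enzyme of the mevalonate route, was among those lower, averaging 7.97 ± 1.41 scaled TPM in 10C_DMSO and 16.9 ± 2.8 in 96hpf. Glucose metabolism gave 5 higher (8.47%, near the 7.14% of all genes) and 0 lower of 59, and 3 higher with TPM as deposited. pfkfb3, which makes the main activator of glycolysis, was at 78.7, 81.03 and 67.6 scaled TPM in 10C_DMSO and 11.9, 22.04 and 23.1 in 96hpf. The glucocorticoid axis was mixed, with 2 higher and 4 lower of 18 (11.1 and 22.2%) and a median of -0.01. Among the lower, hsd11b2, which inactivates cortisol, was at 6.37, 5.904 and 7.04 scaled TPM in 10C_DMSO and 19.01, 18.3 and 20.6 in 96hpf. The 2 higher were identifiers of sgk1, with log2 changes of 1.07 and 0.94.

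Few genes of energy supply, protein turnover and ribosomes were called, where 7.14% of all genes were higher and 5.27% lower. None of 114 nuclear oxidative phosphorylation genes, 48 proteasome genes and 9 mitochondrial messenger RNAs was called by limma in either direction, with medians of 0.14 for the oxidative phosphorylation genes, 0.09 for the proteasome and 0.10 for the mitochondrial messenger RNAs. At an unadjusted limma p under 0.05 and with no fold threshold 10284 of all 24101 genes passed. Of these lists, 54 of the 114 oxidative phosphorylation genes, 19 of the 48 proteasome genes and 3 of the 9 mitochondrial messenger RNAs passed. Single members were called under some alternatives. Of 100 cytosolic ribosomal protein identifiers 1 was called higher and 0 lower. Of 85 ribosome biogenesis genes 2 were higher and 2 lower, or 0 and 8 with TPM as deposited. At the unadjusted threshold 73 of the 100 ribosomal protein identifiers and 30 of the 85 ribosome biogenesis genes passed. Mitosis genes gave 2 higher and 3 lower of 48 (4.17 and 6.25%), close to the shares of all genes. Of 53 DNA replication identifiers 3 were called higher (5.66%) and 1, mcm6, lower (1.89%), with a median of -0.07. Against 28C_DMSO, where 8.73% of all genes were higher and 7.06% lower, 15 of the 53 were higher and 0 lower. cdt1, a licensing factor of replication origins, averaged 7.401 ± 0.158 scaled TPM in 10C_DMSO and 2.73 ± 0.353 in 96hpf. ccne2, a cyclin of the entry to S phase, averaged 20.7 ± 1.66 scaled TPM in 10C_DMSO and 8.71 ± 1.87 in 96hpf. The other one higher was 1 of the 2 identifiers of cdc6.

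**Figure D4:**
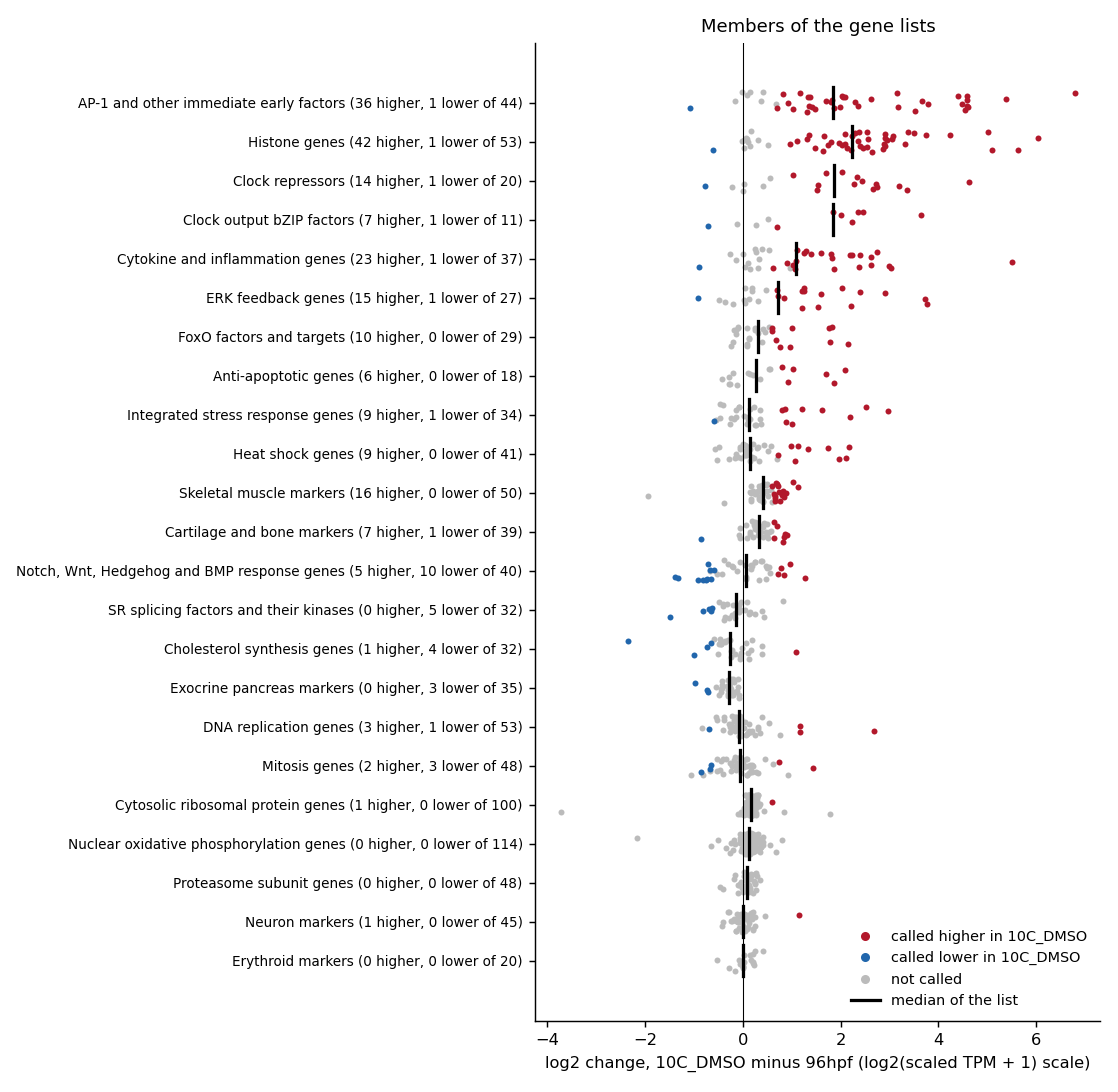
Each point is a measured member of the list named at the left, with its log2 change, 10C_DMSO minus 96hpf, on the x axis. Red points were called higher, blue lower and grey neither, and black bars are medians. Medians reach 2.23 for histones and 1.85 for immediate early factors and stay within 0.2 of 0 for ribosomal, oxidative phosphorylation and proteasome genes.

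Markers of 19 tissues and cell types were listed above 0 in both groups, as whole larvae should show. Neuron (1 higher and 0 lower of 45), liver (1 and 0 of 41), erythroid (0 and 0 of 20) and intestine markers (0 and 0 of 31) were called no more often than all genes. Of 50 skeletal muscle markers 16 were higher and 0 lower (32 and 0%), with a median of 0.42. Their summed level was 85553, 85211 and 94890 scaled TPM in 10C_DMSO, 89179, 82465 and 80992 in 28C_DMSO and 63169, 72326 and 71196 in 96hpf, so warm larvae were near the cold ones. With TPM as deposited 7 of the 50 were called higher, and with quantile normalization 8. Leaving out 96hpf replicate 1, the library with the lowest sum, gave 7, so this count rests on the scaling and on that library. myhz1.2, a fast muscle myosin, was at 849.9, 1033 and 1167 scaled TPM in 10C_DMSO and 433, 635 and 648 in 96hpf. The calcium channel gene ryr1b was at 29.8, 44.5 and 52.2 scaled TPM in 10C_DMSO and 15.9, 24.2 and 26.3 in 96hpf. In both 96hpf replicate 1 was the lowest, and the groups did not overlap. Against 28C_DMSO, where 8.73% of all genes were higher and 7.06% lower, 6 of the 50 were higher and 1 lower.

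Among cartilage and bone markers 7 of 39 were higher and 1 lower (17.9 and 2.56%, against 7.14 and 5.27% of all genes). With TPM as deposited these counts were 4 and 1. The 7 were all collagen genes. col1a1a, a collagen of bone and skin, was at 1075, 935 and 1022 scaled TPM in 10C_DMSO and 523, 578 and 564 in 96hpf, a log2 change of 0.86 (SE 0.0635, limma adjusted p 7.51e-10). col2a1a, the cartilage collagen, was at 422, 448 and 462 scaled TPM in 10C_DMSO and 223, 257 and 266 in 96hpf. In the epidermis 9 of 48 markers were higher and 2 lower (18.8 and 4.17%), or 6 and 3 with TPM as deposited. cldnb, a tight junction claudin, was at 384, 379 and 398 scaled TPM in 10C_DMSO and 58.9, 60.1 and 59.5 in 96hpf, a log2 change of 2.68 (SE 0.0901, limma adjusted p 8.78e-16). The transcription factor gene tp63, which maintains basal epidermis, was at 7.45, 7.37 and 7.62 scaled TPM in 10C_DMSO and 13.3, 16.3 and 13.8 in 96hpf. grhl3, a factor of the outer layer, was at 1.19, 1.55 and 1.3 scaled TPM in 10C_DMSO and 5.44, 4.99 and 4.66 in 96hpf. These factor genes were the 2 markers called lower. In endothelium 4 of 36 identifiers were higher and 4 lower (11.1% each), with a median of -0.01. Among the higher ones 2 are those of dusp5, also an ERK feedback gene.

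Exocrine pancreas markers stood further from warm larvae than from the start. Of 35 markers 3 were called lower against 96hpf (8.57%, against 5.27% of all genes) and 0 higher, with a median of -0.28. With TPM as deposited 9 were lower. Against 28C_DMSO, where 7.06% of all genes were lower, 29 were called lower, with a median of -0.83. The summed level was 24128, 20667 and 19999 scaled TPM in 10C_DMSO, 40744, 39570 and 38626 in 28C_DMSO and 26646, 24276 and 24071 in 96hpf. The cold sums overlapped those of the start, and the warm sums lay well above both. Photoreceptor markers gave 4 higher (7.69%, near the 7.14% of all genes) and 0 lower of 52 against 96hpf. Against 28C_DMSO 14 were higher and 8 lower, where 8.73% of all genes were higher and 7.06% lower.

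MicroRNA genes were listed too, as gene transcripts and not as mature microRNAs. Of 32 measured, 8 were called higher (25.0%, against 7.14% of all genes) and 3 lower (9.38%, against 5.27%). The authors kept genes at 1 TPM or more in every replicate of at least 1 group. dre-mir-124-6, dre-mir-132-1, dre-mir-181b-3 and dre-mir-199-2, all called higher, missed that level in 96hpf and in 28C_DMSO. They are listed only because another group reached it, so the share called higher partly follows from that filter. dre-mir-206-1 and dre-mir-729, both called lower, missed it in 10C_DMSO, so the share called lower partly follows from that filter too. dre-mir-206-1, a gene of a muscle microRNA, was at 1.05, 1.096 and 0.281 scaled TPM in 10C_DMSO and 8.58, 9.74 and 11.03 in 96hpf, a log2 change of -2.60 (SE 0.219, limma adjusted p 6.19e-09). dre-mir-205, of an epithelial microRNA, was at 3.17, 1.87 and 1.203 scaled TPM in 10C_DMSO and 12.6, 9.801 and 8.92 in 96hpf. Their groups did not overlap. dre-mir-124-6, of a neuronal microRNA, was at 298, 282 and 89.8 scaled TPM in 10C_DMSO and 0, 21.4 and 20.8 in 96hpf, a log2 change of 4.65 (SE 1.15, limma adjusted p 0.00344). Its cold values spread widely, and it was listed at 0 in all 3 libraries of 28C_DMSO. dre-mir-21-1 was at 21.1, 38.6 and 46.9 scaled TPM in 10C_DMSO and 11.1, 10.4 and 12.6 in 96hpf. dre-mir-132-1, which neuronal activity induces in mammals, was at 5.47, 8.17 and 4.65 scaled TPM in 10C_DMSO and 0.997, 0 and 2.32 in 96hpf.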

How the data were processed

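RNA of whole zebrafish larvae was sequenced, and per the labels and the study's methods the authors quantified transcripts with Salmon (version 0.13.1) against the Ensembl cDNA sequences of zebrafish, with corrections for GC, sequence and positional bias, and summed them per gene with tximport. The values deposited by the authors are TPM per gene for 27 libraries in 9 groups of 3, restricted by them to genes at 1 TPM or more in every replicate of at least 1 group. A gene that misses that level in 1 group is listed only because another group reached it, which favours differences among such genes. The genome build is not given in the sources used here. The authors tested counts, which were not used here. TPM keeps no read depth, so no counting error can be given.

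Here each library was scaled by its median ratio to the gene-wise reference (size factor) and taken as log2(value + 1). limma (version 3.58.1, R 4.3.3) was fitted with 1 mean per group over all 27 libraries, giving 18 residual degrees of freedom and a trended prior. Genes were called at an adjusted p of 0.05 or less (Benjamini-Hochberg over 24101 genes) and a fold of 1.5 or more. The procedure was also run on simulated data with independent noise, which does not test the calls reported here. Of the identifiers, 4298 share their symbol with another, and 1355 genes held at least 1 value of 0, which can be a failed estimate.

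Groups follow the sample titles. The treatment protocol in the labels of these samples describes the study's other experiment, so temperature, duration and vehicle were taken from the titles and the study's methods. The comparison and the gene lists were chosen with earlier results of these data known. Genes named by rule were the 15 largest rises and 15 largest falls among called genes with non-overlapping groups, a group mean of 5 scaled TPM or more and a symbol of their own, the 10 largest gains and 10 largest losses in level, up to 4 called members of each list with the largest changes, and called microRNA genes. Other members named in the report, for example cry1a, per1b, per2, arntl1a, tefa, spry2, stat3, cirbpa, h3f3a, dla, cxcl8a, tnfb and tp63, were chosen for their role after their values were seen. Alternatives were TPM as deposited, quantile normalization, pseudocounts of 0.1 and 0.5, a minimum mean of 5, a fit of 3 groups, library weights, a replicate block and leaving out each library. Promoter sequences were not analysed here.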

Additional observations from a re-analysis of the deposited data

How the results depend on the processing

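The counts for 10C_DMSO against 96hpf were 1720 higher and 1271 lower. With TPM as deposited 2263 genes were lower, and with a minimum mean of 5 scaled TPM 813 were lower, where 15589 genes were tested. That minimum also brought the genes lower against 28C_DMSO to 1107, against 1702. Leaving out 1 library at a time gave 1644 to 1746 higher and 1177 to 1333 lower against 96hpf, and 2044 to 2173 higher and 1658 to 1844 lower against 28C_DMSO. With the replicate block 1732 genes were higher and 1281 lower against 96hpf, and 2118 and 1712 against 28C_DMSO. The deviations of same-numbered libraries of 10C_DMSO and 96hpf from their group means had correlations of 0.0517, -0.0544 and 0.065. With 3 libraries a group these cannot tell whether the libraries were paired. For 10C_DMSO and 28C_DMSO the correlations were 0.227, 0.101 and 0.0531, the largest for replicate 1. 10C_DMSO replicate 1 gave -0.178 and -0.0772 with 28C_DMSO replicates 2 and 3. A shared origin of same-numbered libraries was not tested.

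Of 191 calls on genes singled out by rule, none turned its direction under any alternative. TPM as deposited lost 13 calls, quantile normalization 9, the fit of 3 groups 6, library weights 2, and leaving out 1 library of 10C_DMSO or 96hpf 7 to 14. The causes were not tested. With 3 libraries a group and no depth, small changes of low genes are the least certain values.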
